A study of Mus musculus with 21 samples.

Results

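The genes described here are 9 genes of leukocyte adhesion and of the signalling that goes with it: Itgb2, Itgam, Itgal, Itgax, Itga4, Selplg, Ptprc, Ptpn6 and Coro1a. They are 9 of the 20872 genes in the deposited table of mouse aortic valve RNA-seq, each matched by its symbol. They were chosen by measured values, around Itgb2, Selplg and Ptpn6, whose FPKM are higher in stenotic or drug-treated valves in these same libraries. Values of stenotic and of treated valves are therefore given as a description. Where calls of the fit over all genes are counted for those contrasts, they restate the choice of genes and support nothing.

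White blood cells leave the blood in steps. P-selectin glycoprotein ligand 1 (PSGL-1, the product of Selplg) first lets them roll along selectins on the vessel wall. Integrins, which are pairs of an alpha and a beta chain, then switch to a high-affinity state and hold the cell on ICAM-type ligands or on VCAM-1. Inside the cell, the phosphatases CD45 and SHP-1 set the activity of Src-family kinases and of inhibitory receptors, and actin regulators such as coronin 1A move the cell. In the aortic valve such cells are mainly resident and recruited macrophages, scattered among interstitial cells.

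All mice were generation 2 Terc-/- animals, which lack the telomerase RNA and have short telomeres. Genotypes were N1het, the labels' name for N1+/- mice, and WT, which is N1+/+. The study compared healthy valves with valves that had stenosis and tested XCT790, an inverse agonist of the nuclear receptor ERRα, given intraperitoneally at 5 mg/kg per day for 4 weeks from 4 weeks of age, or solvent. By sample title the 21 libraries form 5 groups: N1het stenosis XCT790 (n = 3), N1het stenosis with solvent (n = 3), N1het healthy XCT790 (n = 5), N1het healthy with solvent (n = 6) and WT healthy with solvent (n = 4). In 6 libraries a second label field names the other treatment: solvent for N1het healthy XCT790 1, 2 and 3, and XCT790 for N1het stenosis 1, 2 and 3. If that field were right, no stenotic valve would be solvent-treated, and N1het stenosis minus N1het healthy or WT healthy would mix stenosis with drug. Every statement below on XCT790 or on solvent-treated stenosis therefore rests on the titles. Whether each library is its own animal is not in the labels, and the errors therefore cover the spread between samples, which may be technical.

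Levels are FPKM (fragments scaled by gene length and by mapped fragments), so comparisons between genes allow for length. The RNA was amplified, and whether that differed between genes was not tested, so ranks and ratios between genes are approximate. Depth, recovered from the steps of the FPKM, ran from 8.42 to 27.3 M reads (megareads) per library. In 6 libraries mitochondrially encoded genes took at most 0.765% of reads, and these libraries were the deepest, at 17.7 M reads or more. In the other 15 libraries the share was 1.14% to 10.01%. The 6 deepest libraries belong to no single group: 1 is WT healthy, 2 are N1het healthy, 2 are N1het healthy XCT790 and 1 is N1het stenosis XCT790. None is N1het stenosis, so this class is not balanced in N1het stenosis minus N1het healthy. Fibroblast and interstitial markers were high in every library, with Dcn, a matrix proteoglycan gene, at 2580 to 5373 FPKM, which fits the labelled tissue. Heart muscle markers summed to between 33.9 and 4518 FPKM over 7 genes, so the amount of muscle in the samples differed widely.

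All 9 genes were detected in all 21 libraries. Coro1a had the highest mean level over the libraries (37.0 FPKM), before Itgam (22.4 FPKM), Ptprc (17.8 FPKM), Itgb2 (17.1 FPKM), Selplg (15.3 FPKM) and Ptpn6 (13.9 FPKM). Itga4 (5.53 FPKM), Itgax (5.34 FPKM) and Itgal (2.90 FPKM) were low. Itgal rested on as few as 5 reads in a library, against 75 or more for Itgb2, so its values are the least exact.

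Promoter sequences are shown for 3 genes because the 9 genes share their expression in blood-derived cells. RefSeq (GRCm38.p6) gave promoter windows for 6 of the 9 genes, namely Itgam, Itgax, Itga4, Ptprc, Ptpn6 and Coro1a, and the 250 bases before each annotated start were searched. The motif GAGGAA, the core that the myeloid factor PU.1 and related ETS factors bind, was searched on both strands and is in capitals. It is written as TTCCTC where it lies on the other strand. The windows are Itgam at chr7:128062390-128062639 (plus strand), Itgax at chr7:128129300-128129549 (plus strand) and Ptprc, first window, at chr1:138175306-138175555 (minus strand), each given 5′ to 3′ in the direction of the gene.
Itgam: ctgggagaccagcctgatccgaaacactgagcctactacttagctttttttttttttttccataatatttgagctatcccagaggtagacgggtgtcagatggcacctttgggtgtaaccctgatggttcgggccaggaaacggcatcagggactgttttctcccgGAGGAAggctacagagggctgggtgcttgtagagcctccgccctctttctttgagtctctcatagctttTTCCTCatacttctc
Itgax: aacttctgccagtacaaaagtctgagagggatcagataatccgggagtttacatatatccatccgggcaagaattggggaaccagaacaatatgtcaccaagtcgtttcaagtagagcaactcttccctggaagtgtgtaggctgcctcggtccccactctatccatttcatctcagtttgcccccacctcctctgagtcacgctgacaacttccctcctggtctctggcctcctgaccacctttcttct
Ptprc: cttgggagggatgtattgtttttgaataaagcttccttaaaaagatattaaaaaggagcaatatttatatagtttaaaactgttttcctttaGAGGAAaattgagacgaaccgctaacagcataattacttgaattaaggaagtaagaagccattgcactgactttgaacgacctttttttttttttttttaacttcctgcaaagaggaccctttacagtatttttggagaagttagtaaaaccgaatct

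The Itgam window held 2 matches, at bases -84 and -15 before the start, and the first Ptprc window held 1, at base -158. The Itgax window, from a neighbouring gene of the same family, had none. Of 32851 windows of this length in the whole table, 23.3% held GAGGAA. Among the 8 windows of the 6 genes 2 held it, which is close to what any promoters show. TGTGGT, a core of RUNX factors, was also searched on both strands, was found only in the window of Itga4 among these genes, at base -60, and occurs in 14.0% of all windows. It overlaps no GAGGAA match in these windows. A match is a description of the letters and not of binding.

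**Figure D1:**
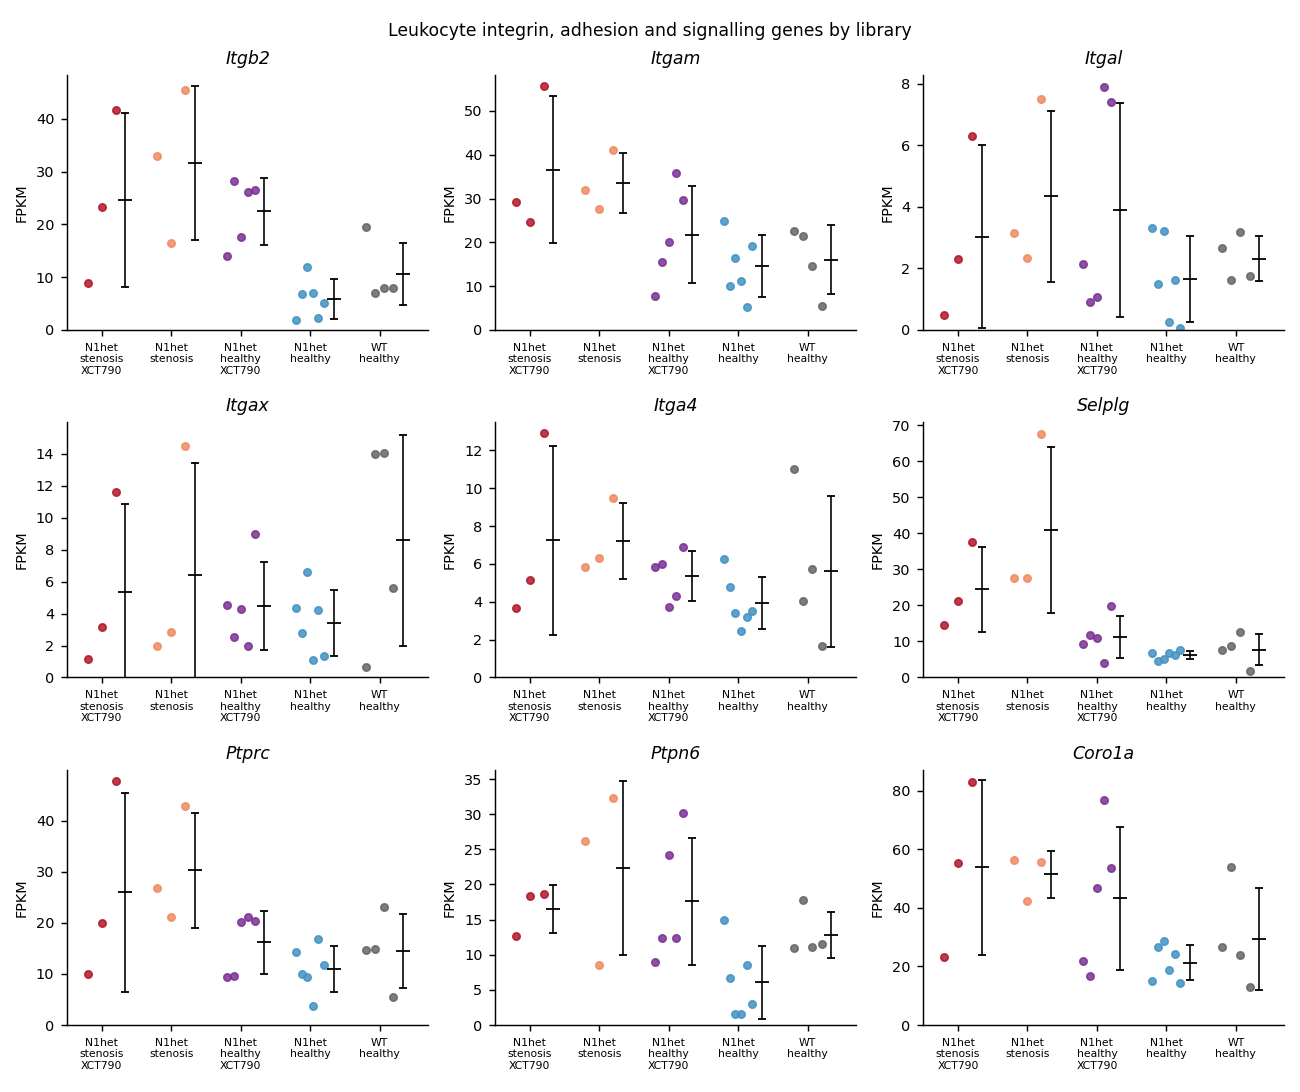
Level of each of the 9 genes (FPKM, linear axis from 0) in every library. Points are libraries by group, and the black bar is the group mean with its SD (n = 3, 3, 5, 6 and 4 from left to right), cut at 0 where it would pass below. In all 9 panels the N1het healthy group has the lowest mean, and it is the low side of the contrasts that guided the choice of genes.

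N1het healthy valves had the lowest mean of the 5 groups for 9 of the 9 genes. This group is also the low side of the contrasts that guided the choice of genes, so its low rank is partly built in. N1het stenosis had the highest mean for Itgb2, Itgal, Selplg, Ptprc and Ptpn6, N1het stenosis XCT790 for Itgam, Itga4 and Coro1a, and WT healthy for Itgax. When the 5 groups were ordered by mean for each gene, none of the 36 pairs of neighbouring groups had ranges that stood apart. In bulk tissue, fewer leukocytes and less RNA of a gene per leukocyte cannot be told apart.

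Itgb2 encodes the beta2 chain (CD18), the shared partner of the leukocyte-specific integrins LFA-1, Mac-1 and CD11c/CD18. It stood at 8.95, 23.2 and 41.7 FPKM in the N1het stenosis XCT790 libraries and at 32.9, 16.4 and 45.5 FPKM in N1het stenosis. In healthy treated N1het valves it was 13.9, 28.3, 17.6, 26.2 and 26.6 FPKM. N1het healthy ran from 1.95 to 11.95 FPKM with a median of 5.97 FPKM, and WT healthy had 19.4, 6.94, 7.96 and 7.98 FPKM. Thus the libraries of N1het stenosis and of N1het healthy XCT790 all lay above all 6 N1het healthy libraries, while N1het stenosis XCT790 1 lay inside their range. Group means were 24.6 ± 16.4, 31.6 ± 14.6, 22.5 ± 6.35, 5.87 ± 3.70 and 10.6 ± 5.93 FPKM in the order N1het stenosis XCT790, N1het stenosis, N1het healthy XCT790, N1het healthy and WT healthy (SD). Of the 4 WT libraries, 3 were also below every N1het healthy XCT790 library, and WT healthy 1, at 19.4 FPKM, was not.

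Itgam, which encodes CD11b, the alpha chain of Mac-1 on macrophages, monocytes and neutrophils, was the most abundant alpha chain. Its levels were 29.3, 24.7 and 55.8 FPKM in N1het stenosis XCT790 and 32.0, 27.5 and 41.1 FPKM in N1het stenosis. It was 7.85, 15.4, 20.2, 35.7 and 29.6 FPKM in N1het healthy XCT790. In N1het healthy it ran from 5.31 to 24.97 FPKM (median 13.9 FPKM) and WT healthy had 22.6, 21.4, 14.6 and 5.46 FPKM. The N1het stenosis libraries lay above all N1het healthy and all WT healthy libraries, and the N1het healthy XCT790 libraries overlapped with both.

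Itgal (CD11a, the alpha chain of LFA-1, the main integrin of lymphocytes) and Itgax (CD11c, found on dendritic cells and some macrophages) were lower and more scattered. Itgal had 0.484, 2.31 and 6.31 FPKM in N1het stenosis XCT790, 3.16, 2.35 and 7.51 FPKM in N1het stenosis, and 2.16, 0.923, 1.07, 7.91 and 7.41 FPKM in N1het healthy XCT790. N1het healthy ran from 0.0612 to 3.31 FPKM and WT healthy from 1.64 to 3.18 FPKM. All 5 groups overlapped in Itgal. Itgax had 1.18, 3.17 and 11.6 FPKM in N1het stenosis XCT790 and 1.95, 2.82 and 14.5 FPKM in N1het stenosis. N1het healthy XCT790 had 1.95 to 8.98 FPKM, N1het healthy 1.08 to 6.57 FPKM, and WT healthy 0.643, 14.0, 14.1 and 5.58 FPKM. Itgax was the gene of the 9 with its highest group mean in WT valves (8.57 ± 6.62 FPKM, SD, n = 4).

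The level of the beta2 chain can be set against that of its alpha chains. The 4 alpha chains that pair with it, Itgal, Itgam, Itgax and Itgad, summed to 45.0 ± 24.9 FPKM in N1het stenosis XCT790, 44.5 ± 16.3 in N1het stenosis, 30.1 ± 14.8 in N1het healthy XCT790, 19.7 ± 8.55 in N1het healthy and 26.9 ± 10.4 FPKM in WT healthy (SD). Itgam was the highest of the 4 in 20 of 21 libraries and made up 42.6% to 94.2% of the sum (median 76.4%). Itgad was at most 0.457 FPKM and was listed at 0 in 9 libraries. Itgb2 per FPKM of alpha chain was 0.541 ± 0.241 in N1het stenosis XCT790, 0.701 ± 0.195 in N1het stenosis, 0.858 ± 0.388 in N1het healthy XCT790, 0.333 ± 0.194 in N1het healthy and 0.453 ± 0.276 in WT healthy (SD). It ran from 0.574 to 1.49 in N1het healthy XCT790 and from 0.0596 to 0.563 in N1het healthy, with no overlap. The ratio takes its difference from Itgb2, a gene chosen for that contrast, so it carries no test.

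**Figure D2:**
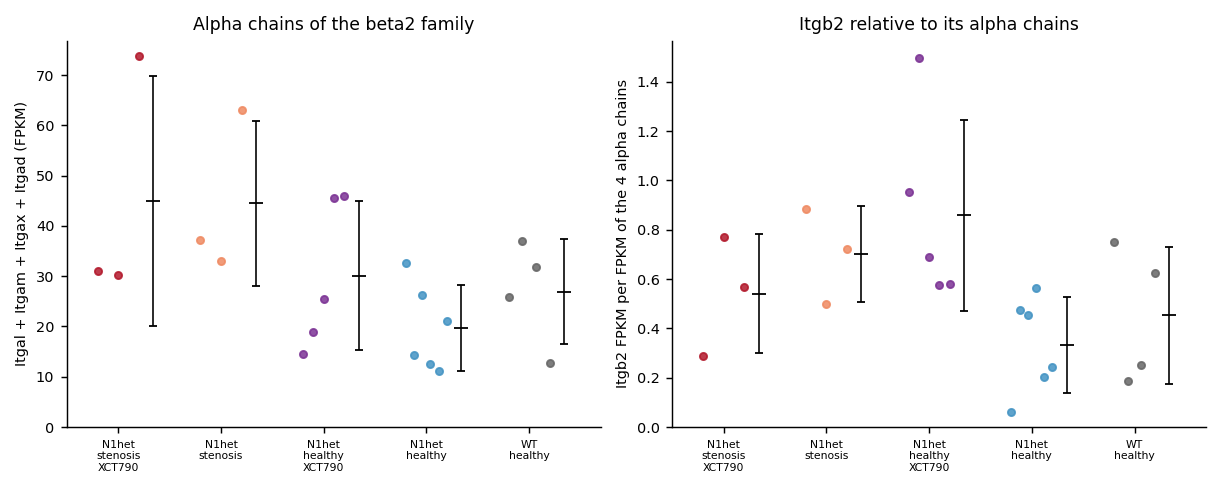
Left, summed FPKM of the alpha chains Itgal, Itgam, Itgax and Itgad by library. Right, Itgb2 FPKM divided by that sum (a ratio). Points are libraries, black bars are the mean and SD of each group, and both axes start at 0. The N1het healthy XCT790 libraries lie at 0.574 or more in the right panel, and the N1het healthy libraries at 0.563 or less.

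Itga4 encodes the alpha4 chain, which pairs with beta1 in VLA-4, the receptor for VCAM-1 and fibronectin, or with beta7 to bind the mucosal addressin. It had 3.65, 5.14 and 12.9 FPKM in N1het stenosis XCT790 and 5.83, 6.29 and 9.50 FPKM in N1het stenosis. Levels in N1het healthy XCT790 were 5.84, 6.02, 3.74, 4.32 and 6.92 FPKM. N1het healthy libraries ran from 2.47 to 6.25 FPKM (median 3.46 FPKM) and WT healthy had 11.03, 4.03, 5.72 and 1.65 FPKM. The groups overlapped throughout. Its partner Itgb1 was far more abundant, at 190 ± 16.1 FPKM in N1het stenosis and 149 ± 31.9 FPKM in N1het healthy (SD, n = 3 and 6). Fibroblasts and endothelium also make Itgb1. Itgb7 was low, at 1.99 ± 1.07 FPKM in N1het stenosis and 0.195 ± 0.280 FPKM in N1het healthy (SD).

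Selplg was the gene in which the stenotic libraries lay highest relative to the healthy ones. It had 14.6, 21.2 and 37.6 FPKM in N1het stenosis XCT790 and 27.6, 27.6 and 67.6 FPKM in N1het stenosis. The N1het healthy XCT790 values were 9.38, 11.7, 10.9, 3.93 and 19.9 FPKM. N1het healthy ran only from 4.64 to 7.65 FPKM (median 6.53 FPKM), and WT healthy had 7.66, 8.86, 12.6 and 1.92 FPKM. The 3 N1het stenosis libraries were above all 15 libraries of the healthy groups. The 3 N1het stenosis XCT790 libraries were above all N1het healthy and WT healthy libraries and overlapped with N1het healthy XCT790.

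Ptprc encodes CD45, the receptor phosphatase found on nearly all nucleated blood cells, and is used as their general marker. It had 10.1, 20 and 47.8 FPKM in N1het stenosis XCT790 and 26.9, 21.05 and 42.8 FPKM in N1het stenosis. In N1het healthy XCT790 it had 9.49, 9.52, 20.2, 21.2 and 20.4 FPKM. Across N1het healthy it ran from 3.77 to 16.7 FPKM (median 10.9 FPKM) and WT healthy had 14.8, 14.9, 23.1 and 5.44 FPKM. N1het stenosis lay above all N1het healthy libraries and overlapped with WT healthy in 1 library of each group.

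Ptpn6 encodes SHP-1, a cytosolic phosphatase that inhibitory receptors recruit. Its levels were 12.6, 18.4 and 18.6 FPKM in N1het stenosis XCT790 and 26.2, 8.49 and 32.3 FPKM in N1het stenosis. N1het healthy XCT790 had 8.99, 12.4, 24.1, 12.4 and 30.1 FPKM. N1het healthy ran from 1.54 to 14.9 FPKM (median 4.85 FPKM) and WT healthy had 10.9, 17.8, 11.2 and 11.5 FPKM. The N1het healthy group was spread widest relative to its mean, and the stenotic and treated groups overlapped with it.

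Coro1a encodes coronin 1A, an actin-binding protein of leukocytes that bears on their migration and survival. It had 23.3, 55.3 and 82.9 FPKM in N1het stenosis XCT790 and 56.5, 42.3 and 55.8 FPKM in N1het stenosis. N1het healthy XCT790 had 21.9, 16.8, 46.8, 77.0 and 53.6 FPKM. N1het healthy ran from 14.4 to 28.6 FPKM (median 21.5 FPKM) and WT healthy had 26.8, 53.9, 23.9 and 13.2 FPKM. The N1het stenosis libraries were above all N1het healthy libraries, and WT healthy 2 reached the stenotic range.

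Single libraries weighed heavily on the stenotic groups. N1het stenosis 3 had the highest level of its group in 8 of the 9 genes, and N1het stenosis XCT790 3 in 9 of 9. The same libraries had the highest macrophage marker levels of their groups, at 7.23 and 7.25 on the mean log2(FPKM + 1) scale, and their part in the results was not tested beyond leaving each out.

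Differences between groups were fitted with limma on log2(FPKM + 1) over 14966 genes with a mean of 1 FPKM or more, all 9 genes among them, with Benjamini-Hochberg adjustment over all 14966 and a threshold of 0.05. In N1het stenosis minus N1het healthy the difference was 2.42 ± 0.46 for Selplg, 2.32 ± 0.49 for Itgb2, 1.87 ± 0.52 for Ptpn6, 1.43 ± 0.47 for Ptprc, 1.28 ± 0.47 for Itgam and 1.27 ± 0.45 for Coro1a (log2, SE). The values for Itgal, Itga4 and Itgax were 1.08 ± 0.61, 0.75 ± 0.42 and 0.49 ± 0.69. All 9 were positive, with a median of 1.28, against -0.04 over all genes tested, of which 46.8% were positive. The groups did not overlap for 5 genes (Itgb2, Itgam, Selplg, Ptprc and Coro1a), as for 2.72% of all genes in that direction. None of the 9 was called, as 0.0334% of all genes were, while 6 of 9 had an unadjusted p under 0.05, as 9.6% of all genes had, and limma voom on recovered reads also called 0. Selplg was called in this contrast with the replicate number as a block (adjusted p = 0.0350) and with only the compared groups in the limma fit (adjusted p = 0.0382). Because these genes were chosen for this contrast, nothing is read from these counts. Against WT healthy, N1het stenosis was higher by 2.33 ± 0.49 for Selplg, 1.5 ± 0.52 for Itgb2 and 1.17 ± 0.51 for Itgam, with 8 of 9 differences positive and Itgax at -0.33 ± 0.75. None of the 9 was called, as 0.0334% of all genes were, with 4 of 9 at an unadjusted p under 0.05, as 10.4% of all genes were, and 0 called by voom. Itgam and Selplg did not overlap, as 5.05% of all genes did not in that direction.

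Under XCT790 the fitted stenosis difference was smaller for all 9 genes. In N1het stenosis XCT790 minus N1het healthy XCT790 it was 1.11 ± 0.47 for Selplg, 0.80 ± 0.49 for Itgam and -0.06 ± 0.50 for Itgb2 (log2, SE), with 6 of 9 positive and a median of 0.23 against 0.04 over all genes tested. None of the 9 was called by limma, as 0% of all genes were, or by voom. Only Selplg had an unadjusted p under 0.05, as 5.08% of all genes had, and no gene of the 9 was free of overlap, as 2.06% of all genes were in that direction. With treatment taken from the second label field the median was -0.06, and without N1het stenosis XCT790 3 it was -0.09. Averaged over both treatments, the stenosis difference was 1.76 ± 0.33 for Selplg, 1.13 ± 0.35 for Itgb2 and 1.04 ± 0.34 for Itgam. Selplg was the 1 gene of the 9 called in that average, as 0.374% of all genes were, and 6 of 9 had an unadjusted p under 0.05, as 11.5% of all genes had. Selplg was among the genes chosen for being high in stenotic valves, so this call restates the choice and nothing is read from it. It was no longer called in the 15 libraries with 1% or more mitochondrial reads (1.84), without N1het stenosis 3 (1.55) or without N1het stenosis XCT790 3 (1.59).

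Treated and untreated healthy valves differed most in Itgb2. In N1het healthy XCT790 minus N1het healthy, Itgb2 was 1.91 ± 0.42, Ptpn6 1.60 ± 0.45 and Coro1a 0.83 ± 0.39 on the log2 scale (SE), and the other 6 genes lay between 0.33 and 0.76. All 9 were positive, with a median of 0.63 against 0.03 over all genes tested. Itgb2 was the 1 gene of the 9 without overlap, as 0.18% of all genes were in that direction. None of the 9 was called by limma, as 0% of all genes were, nor by voom, and 3 of 9 had an unadjusted p under 0.05, as 2.65% of all genes had. With treatment taken from the second label field, which leaves 2 treated healthy libraries, Itgb2 was 1.60 and Ptpn6 1.40, and the median over the 9 was 1.24. In the 15 libraries with 1% or more mitochondrial reads the median was 1.20.

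In stenotic valves the XCT790 difference lay near 0 or below. N1het stenosis XCT790 minus N1het stenosis gave -0.69 ± 0.53 for Selplg, -0.47 ± 0.56 for Itgb2, -0.24 ± 0.61 for Ptpn6 and 0.05 ± 0.55 for Itgam (log2, SE), with 1 of 9 positive and a median of -0.24. None was called by limma or voom, as 0% of all genes were, and 0 of 9 had an unadjusted p under 0.05, as 3.35% of all genes had. For the 9 genes, leaving out N1het stenosis XCT790 3 moved the median to -0.89, and leaving out N1het stenosis XCT790 1 moved it to 0.09. The XCT790 difference in stenotic minus that in healthy valves was negative for all 9 genes, with a median of -0.96. It was -2.39 ± 0.70 for Itgb2 and -1.84 ± 0.75 for Ptpn6. None of the 9 was called by limma or voom, as 0% of all genes were, and 2 of 9 had an unadjusted p under 0.05, as 2.98% of all genes had. These contrasts share their N1het stenosis and N1het healthy libraries with the ones above.

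**Figure D3:**
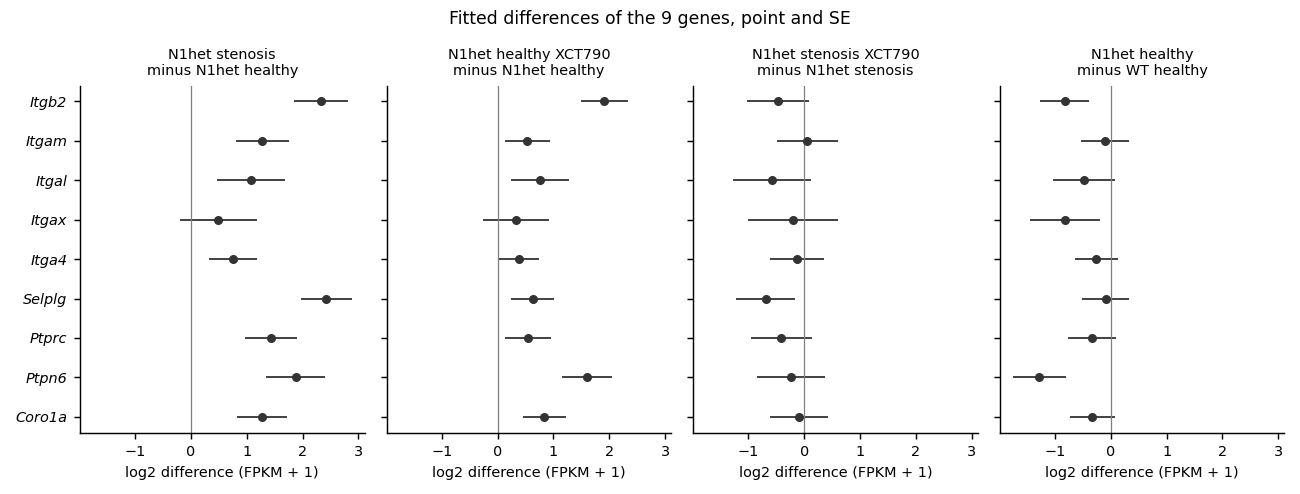
Fitted differences of the 9 genes on the log2(FPKM + 1) scale in 4 contrasts, with points for the estimate, bars for the SE and a line at 0. All 9 points are positive in the first and second panels, 1 of 9 in the third, and none in the fourth.

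Only N1het healthy minus WT healthy involves neither stenotic nor treated valves, so the test is given per gene for this contrast. It is not independent of the choice of genes. Its N1het healthy libraries are also the low side of the contrasts that guided the choice, which favours negative differences. No gene passed the test. The largest difference was in Ptpn6, at 6.05 ± 5.20 FPKM in N1het healthy and 12.8 ± 3.29 FPKM in WT healthy (SD, n = 6 and 4), a log2 difference of -1.28 ± 0.48 (SE, limma adjusted p = 0.558). Of the 6 N1het healthy libraries, 5 had less Ptpn6 than every WT library, and N1het healthy 1, at 14.9 FPKM, did not. Over all alternatives this adjusted p ran from 0.417 to 0.848.

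Itgb2 averaged 5.87 ± 3.70 FPKM in N1het healthy and 10.6 ± 5.93 FPKM in WT healthy (SD), a log2 difference of -0.83 ± 0.44 (limma adjusted p = 0.703, and 0.546 to 0.940 over the alternatives). Itgax differed by -0.82 ± 0.63 (limma adjusted p = 0.803), and the other 6 genes by -0.48 to -0.09. All 9 differences were negative, with a median of -0.34 against 0.09 over all genes tested, of which 57.6% were positive. The choice of genes favours that sign. That median was -0.64 without WT healthy 4 and -0.18 in the 15 libraries with 1% or more mitochondrial reads. Itgam, Itga4, Selplg and Coro1a turned positive under at least 1 alternative, so their direction is not settled. Limma called 0% of all genes in this contrast, and voom called 0 of the 9. At an unadjusted p under 0.05 there was 1 of 9, Ptpn6, as there were 7.42% of all genes. For none of the 9 did all N1het healthy libraries lie below all WT libraries, as they did for 0.294% of all genes. The spread in this test is estimated over all 21 libraries, stenotic and treated ones included.

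The authors marked changed genes in their deposited table, with the test not stated. In that deposited table of the authors Selplg carries a mark for N1het stenosis against WT healthy and against N1het healthy. Itgb2 carries one in the authors' deposited table for N1het stenosis against N1het healthy and for N1het healthy XCT790 against N1het healthy. None of the 9 genes is marked in the authors' deposited table for N1het healthy against WT healthy or for N1het stenosis XCT790 against N1het stenosis. Their marks over all 20872 genes were 281, 262 and 26 for the first 3 of these comparisons, 139 (0.666%) for N1het healthy against WT healthy and 56 (0.268%) for N1het stenosis XCT790 against N1het stenosis.

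Macrophage and monocyte markers were higher in the same libraries as the 9 genes. All 17 markers on that list, among them Lyz2 (lysozyme), C1qb (a complement C1q chain) and Csf1r (the receptor for macrophage growth factors), had positive differences in N1het stenosis minus N1het healthy, with a median of 1.45. Their summed level was 2034 to 8770 FPKM in N1het stenosis XCT790, 3966 to 7331 in N1het stenosis, 1349 to 4056 in N1het healthy XCT790, 1006 to 2436 in N1het healthy and 1401 to 2485 FPKM in WT healthy. In N1het stenosis XCT790 minus N1het stenosis, 0 of 17 were positive. In N1het healthy XCT790 minus N1het healthy 16 of 17 were (median 0.54), and in N1het healthy minus WT healthy 4 of 17 (median -0.15). Across the 21 libraries the mean log2 level of the 9 genes correlated with that of the 17 markers at r = 0.936, and at 0.901 after group means were subtracted. Those libraries share tissue dissection and depth, the r with depth being -0.36 and with heart muscle markers -0.31. The 9 genes minus the markers averaged -2.54 ± 0.22 in N1het stenosis XCT790, -2.59 ± 0.20 in N1het stenosis, -2.33 ± 0.23 in N1het healthy XCT790, -2.58 ± 0.33 in N1het healthy and -2.30 ± 0.11 in WT healthy (log2, SD). The groups overlapped in that difference. Whether the number of macrophages accounts for the levels of the 9 genes was not tested.

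**Figure D4:**
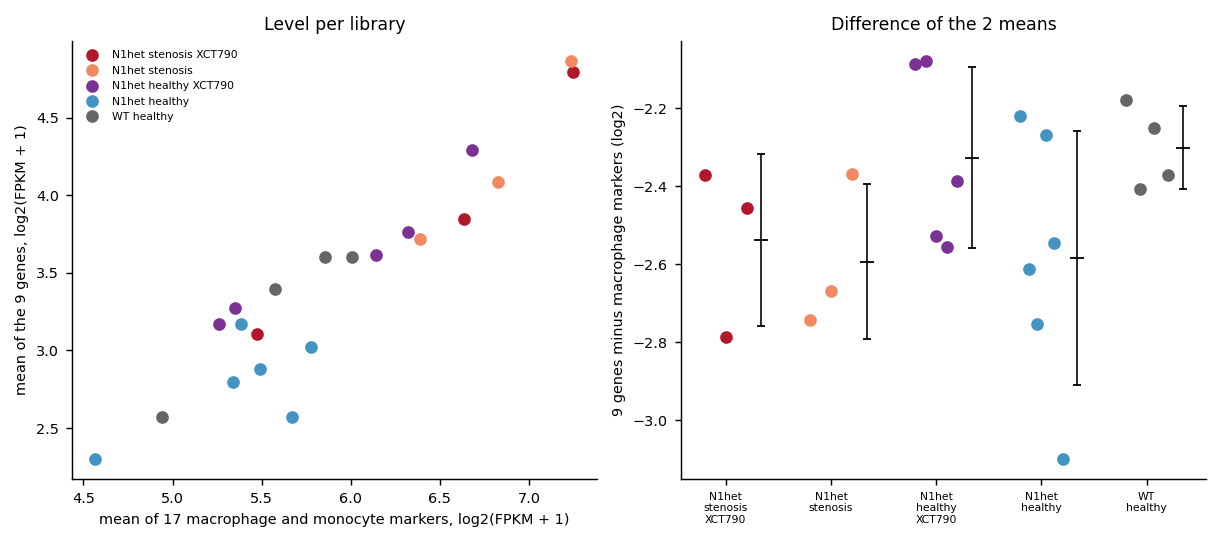
Left, mean of the 9 genes against mean of 17 macrophage and monocyte markers, both as log2(FPKM + 1), with 1 point per library coloured by group (r = 0.936 over 21 libraries). Right, the difference of the 2 means by library, with group mean and SD in black. The points follow a line at left, and the groups overlap at right.

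Markers of other cells of the valve also differed between stenotic and healthy valves. In N1het stenosis minus N1het healthy, 0 of 7 fibroblast and interstitial markers were positive, with a median log2 difference of -0.59, and Dcn and Lum, both small proteoglycan genes, were called lower in the average over both treatments. Their summed level was 5174 to 6098 FPKM in N1het stenosis and 7177 to 10868 FPKM in N1het healthy, with no overlap. Heart muscle markers were positive in 0 of 7 (median -1.23), smooth muscle markers in 4 of 4 (median 1.29) and endothelial markers in 5 of 7 (median 0.21), with 0 called. Muscle markers also differed in the other contrasts. In N1het healthy minus WT healthy, heart muscle markers were positive in 7 of 7 (median 1.76) and smooth muscle markers in 0 of 4 (median -1.76). In N1het healthy XCT790 minus N1het healthy these were 0 of 7 (median -1.31) and 4 of 4 (median 1.21). The part of these cells in the levels of the 9 genes was not tested.

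Marker lists of blood cells other than macrophages also differed in level. Platelet markers, mostly Pf4, a platelet chemokine, summed to 309 to 678 FPKM in N1het stenosis XCT790, 386 to 541 in N1het stenosis, 93.3 to 351 in N1het healthy XCT790, 62.0 to 439 in N1het healthy and 217 to 438 FPKM in WT healthy. In N1het stenosis minus N1het healthy 4 of 5 were positive (median 0.88), and Gp9, a platelet receptor subunit, was called higher in the average. Gp9 averaged 5.12 FPKM over the libraries, against 300 FPKM for Pf4, so the platelet sum mostly gives the level of Pf4. Red cell markers reached 1109 FPKM in N1het stenosis XCT790 1 and 1244 FPKM in N1het healthy 6, and 0 of 5 were positive in N1het stenosis minus N1het healthy (median -1.13). Mast cell markers reached 533 FPKM in N1het healthy XCT790 4, against at most 73.7 FPKM in WT healthy. The neutrophil, T and NK cell, B cell and dendritic cell lists each summed to at most 81.2 FPKM in any library. Neutrophil markers summed to 2.51 to 27.0 FPKM in N1het stenosis XCT790, 4.97 to 57.3 in N1het stenosis, 0.383 to 8.76 in N1het healthy XCT790, 0.584 to 10.1 in N1het healthy and 0.835 to 4.28 FPKM in WT healthy. Of the 8 neutrophil markers listed, 3 passed the filter. In N1het stenosis minus N1het healthy 3 of 3 were positive (median 2.62), with 0 called. In N1het stenosis XCT790 minus N1het stenosis 0 of 3 were positive (median -1.26). S100a9 was at 0 in 17 libraries and Retnlg in 20. Csf3r, the receptor for granulocyte growth factor, was called in the average stenosis difference at 2.21 ± 0.40 (log2, SE), beside Selplg. Neutrophils carry Itgb2, Itgam and Selplg too, and their part in these values was not tested. T and NK cell markers summed to 7.46 to 19.8 FPKM in N1het stenosis XCT790, 8.82 to 16.2 in N1het stenosis, 6.14 to 17.2 in N1het healthy XCT790, 3.02 to 14.3 in N1het healthy and 1.26 to 60.5 FPKM in WT healthy. Nkg7 was at 0 in 13 libraries and the B cell gene Cd79b in 12. The most abundant gene of each list was detected in every library, at a mean of 4.44 FPKM for T and NK cells and 31.8 FPKM for B cells.

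The levels of the 9 genes were correlated with each other to differing degrees. Among the 36 pairs of them, Pearson r over the 21 libraries was 0.107 to 0.761 with a median of 0.549. Within groups 35 of 36 pairs were positive, from -0.194 to 0.643, with a median of 0.380. Itgb2 and Ptpn6, the genes with the largest fitted differences of N1het healthy XCT790 from N1het healthy, had an r of 0.482 over all libraries and -0.194 within groups. By the highest r with the mean of the 9 genes, each scaled to SD 1, over 21 libraries, the most similar other genes were Csf1r (0.930), Cybb (0.925), Lcp1 (0.923), Laptm5 (0.917), C1qb (0.907), Fcer1g (0.889), Gp49a (0.881) and Cd68 (0.881). After group means were subtracted the 8 nearest were Csf1r (0.937), Laptm5 (0.907), Lcp1 (0.902), Fcer1g (0.898), Ptpro (0.897), Jun (0.893), Cybb (0.892) and Gp49a (0.888). These values share the same libraries and depth and carry no p.

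Genes around the 9 were counted by list. Of the other integrins, 13 of 17 tested were positive in N1het stenosis minus N1het healthy, with a median of 0.34 (-0.04 over all genes). Itga9 (0.11 ± 0.30) and Itga5 (0.16 ± 0.32), the most abundant alpha chains of that list, and Itgb1 (0.37 ± 0.18) were close to that (log2, SE). None was called in either direction in N1het stenosis minus N1het healthy or in N1het healthy minus WT healthy. In the second of these contrasts 4 of 17 were positive, with a median of -0.08.

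Among ligands of the 9, 7 of 14 were positive in N1het stenosis minus N1het healthy, with a median of -0.03 and 0 called. Vcam1, the endothelial ligand of the alpha4 chain, had 264 ± 67.9 FPKM in N1het stenosis and 183 ± 49.1 FPKM in N1het healthy (SD), a log2 difference of 0.55 ± 0.30. Icam1, the ligand of LFA-1 and Mac-1, had 27.9 ± 14.0 and 30.5 ± 7.27 FPKM in these groups, a difference of -0.20 ± 0.28. The selectin genes Selp and Sele, to whose products PSGL-1 binds, differed by -0.24 ± 0.56 and -0.38 ± 0.64. Whether the ligands differ as a group from the 9 genes was not tested. In N1het healthy minus WT healthy 8 of 14 ligands were positive (median 0.06) and 0 were called, with Icam1 at 0.66 ± 0.26 (limma adjusted p = 0.571).

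Of the genes for integrin activation and leukocyte actin, 17 of 21 were positive in N1het stenosis minus N1het healthy, with a median of 0.63. Rap1b, a small GTPase that switches integrins on, had 134 ± 37.4 FPKM in N1het stenosis and 97.9 ± 29.4 FPKM in N1het healthy (SD), a log2 difference of 0.47 ± 0.27. Fermt3, the kindlin that binds beta chains, differed by 0.63 ± 0.60. Of the kinases, phosphatases and adaptors, 19 of 22 were positive, with a median of 1.18. Tyrobp, the adaptor DAP12 of myeloid receptors, had 751 ± 179 FPKM in N1het stenosis and 234 ± 89.9 FPKM in N1het healthy (SD), a difference of 1.77 ± 0.43. Fcer1g, an adaptor of Fc receptors, differed by 1.17 ± 0.41 and Cd47, a signal against engulfment found on most cells, by -0.02 ± 0.20. None of either list was called, and in N1het healthy minus WT healthy 4 of 21 and 9 of 22 were positive with 0 called.

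PSGL-1 binds selectins only after its sugars and tyrosines are modified. Of the enzymes for this, 5 of 8 tested were positive in N1het stenosis minus N1het healthy, with a median of 0.20 and 0 called. St3gal4, a sialyltransferase, differed by -0.47 ± 0.33, B4galt1, a galactosyltransferase, by 0.15 ± 0.26, and Tpst2, a tyrosine sulfotransferase, by -0.56 ± 0.38 (log2, SE). Fut7 and Fut4, the fucosyltransferases that finish the selectin-binding sugar in leukocytes, averaged 0.131 and 0.0417 FPKM and were too low to be tested. In N1het healthy minus WT healthy 4 of 8 were positive and 0 were called. In N1het healthy XCT790 minus N1het healthy no gene of the 5 lists was called. There the kinases, phosphatases and adaptors were positive in 20 of 22 (median 0.37) and the activation and actin genes in 18 of 21 (median 0.32). The other integrins were positive in 11 of 17 (median 0.10), the ligands in 4 of 14 (median -0.16) and the enzymes in 5 of 8 (median 0.13), against a median of 0.03 over all genes.

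**Figure D5:**
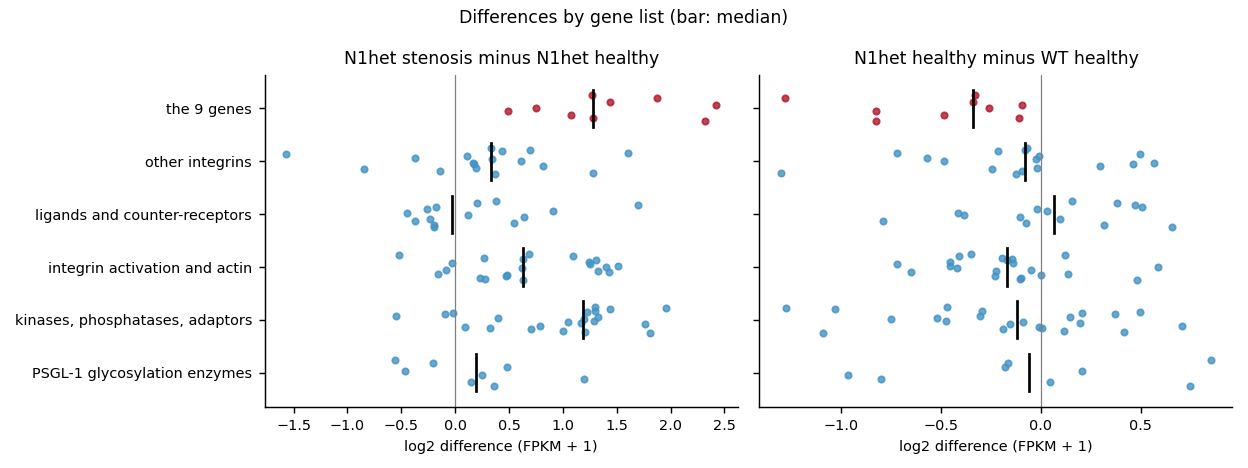
Log2 differences of the 9 genes (red) and of 5 lists of related genes (blue), 1 point per tested gene and a black bar at each list's median, in N1het stenosis minus N1het healthy (left) and N1het healthy minus WT healthy (right). In the left panel the medians are 1.28 for the 9 genes, 1.18 for kinases, phosphatases and adaptors, and -0.03 for ligands.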

How the data were processed

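Per the labels' protocols, aortic valve RNA was isolated by Qiagen RNeasy Micro and amplified by NuGEN Ovation V2. Build mm9 and the tools HISAT2, SAMtools, Picard and FastQC are named in the submitters' processing notes. The sources used here state no versions, counting program or strand setting. The authors deposited FPKM per gene and library, per the file headers, with group means and marks of changed genes. The marks are scored 0 or 1.

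Whole reads were recovered from the FPKM steps (100% of nonzero values whole within 0.01 reads) for depth and for voom. Tests used limma 3.58.1 in R 4.3.3 (trend, robust) on log2(FPKM + 1), 5 group means over 21 libraries, and genes with mean FPKM of 1 or more (14966 tested, 5906 not). The script was checked on simulated data. A fold on this scale understates changes of low genes.

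The members and lists were chosen with earlier results of these data known. Named genes are the 9, the 3 most abundant of each pathway list, 9 partners and ligands, the 2 most abundant of each marker list, and the 8 genes most similar over libraries. Some genes under this rule are not reported here. Cd79b, Csf3r, Nkg7 and S100a9 fall under this rule. Others named (Fut4, Fut7, Gp9, Lum, Retnlg) were chosen as genes of the lists at or near 0 or called. Alternatives were the pseudocount, the filter, scaling, replicate block, samples in the fit, a heart muscle covariate, treatment from the second label field, voom, and leaving out each library.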

Additional observations from a re-analysis of the deposited data

Results flagged for a closer look

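In WT healthy valves, Itgb2 in replicate 1 (19.4 FPKM) lay far above the other 3 libraries (6.94 to 7.98 FPKM). Ptpn6 in WT healthy replicate 2 (17.8 FPKM) lay far above its other 3 (10.9 to 11.5 FPKM). Among 27 combinations of gene and group that were checked, these 2 had an extreme library past Dixon's 95% value, and chance alone flags about 1 in 20.

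For Ptpn6, all 3 N1het stenosis XCT790 libraries were below the N1het stenosis mean (22.3 ± 12.3 FPKM, SD). All 5 N1het healthy XCT790 libraries were above the N1het healthy mean (6.05 ± 5.20 FPKM). The treated stenotic libraries (12.6 to 18.6 FPKM) lay inside the N1het stenosis range (8.49 to 32.3 FPKM), and the healthy groups also overlapped. The XCT790 difference in stenotic valves was -0.24 ± 0.61 (log2, SE), so its direction is not settled. The fitted difference between the effects was -1.84 ± 0.75 (log2, SE), with a limma adjusted p of 1, and Ptpn6 was chosen for a contrast that is part of it.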

How the results depend on the processing

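Of 342 summary values recomputed under the alternatives, 332 were labelled unchanged. A count was so labelled when it was equal or similar in size, and a median when it moved by less than 0.51. That limit is the SD between replicates of the mean log2 level of the 9 genes. Sign was not part of the rule, so a median could cross 0 and stay labelled unchanged. The count of the 9 genes called was 0 in the main fit in every contrast but the average stenosis difference. A 0 that stayed 0 was labelled unchanged, so the total of 332 says little on how stable the results are. The number of the 9 genes called in N1het stenosis minus N1het healthy was 0, but 1 (Selplg) with the replicate block and 1 (Selplg) with only the groups compared in the fit. The count in the average stenosis difference was 1, but 0 in the 15 libraries with 1% or more mitochondrial reads, and 0 to 1 with a library left out. Selplg was called there in 23 of 26 alternatives. The median over the 9 genes in N1het healthy XCT790 minus N1het healthy was 0.63, but 1.20 in those 15 libraries and 1.24 with treatment from the second label field. With a library left out, the median ran from -0.89 to 0.094 for N1het stenosis XCT790 minus N1het stenosis and from -1.52 to -0.45 for the difference of the XCT790 effects. The cause was not tested.

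In N1het healthy minus WT healthy, 11 single-gene log2 differences turned positive. Itga4 was 0.066 in the 15 libraries. With the heart muscle level as a covariate Itgam was 0.000718 and Selplg 0.031, and Selplg was 0.14 with treatment from the second label field. With a library left out, Itgam ran from -0.52 to 0.12, Itga4 from -0.63 to 0.10, Selplg from -0.56 to 0.18 and Coro1a from -0.64 to 0.010. Changes of sign were counted in this contrast only, but they also occurred elsewhere. Over the alternatives, Itgax ran from -0.24 to 0.95 in N1het stenosis minus N1het healthy. It ran from -1.22 to 0.21 in the difference of the XCT790 effects. Ptpn6 ran from -0.42 to 0.25 in N1het stenosis XCT790 minus N1het healthy XCT790. A filter at a mean of 5 FPKM leaves out Itgal. The second label field allows no contrast with solvent-treated stenosis. Whether replicate numbers pair the samples is not in the labels. Over 34 same-numbered pairs, r of the deviations from group means ran from -0.109 to 0.130, and 3 were over 0.1. Low values of r cannot exclude pairing, so what the block in the result above stands for is not known. Depth, 8.42 M reads in the smallest library, limits Itgal most, at 5 reads in 1 library.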
